A study of Mus musculus with 12 samples.

Results

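The genes described here encode the proteins of the cytosolic ribosome, the particle that translates messenger RNA outside mitochondria. They were chosen by name: protein-coding genes whose mouse symbol begins with Rpl or Rps and a digit, together with Rplp0, Rplp1, Rplp2 and Rpsa, without names in -ps and without the Rps6k kinases, and with a mean of 1 FPKM or more over all libraries. FPKM are fragments counted on a gene, scaled to its length and to the reads of the library. Of 37991 genes in the table, 82 met the rule, 48 named Rpl and 34 named Rps, and all 82 passed the filter on low values. One of them, Rps19bp1, encodes a protein that binds ribosomal protein S19 and is itself no part of the ribosome, so 81 members are ribosomal proteins or close paralogues of them. No row was matched to the symbol Rpl24, and that gene was not analysed here. Other names fell outside the rule. Rpl3l, Rpl39l and Rpl10l had means under 1 FPKM, and 6 names of the same form are annotated as pseudogenes, among them Rps4l.

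The RNA came from natural killer (NK) cells, innate lymphocytes that kill infected or transformed cells, sorted from bone marrow of C57Bl/6 mice as NK1.1+CD49b+ and collected in lysis buffer. Ctrl cells came from Id2F/F or Id2F/FTcf7F/F mice, which carry floxed alleles and no Cre. Id2KO cells came from Ncr1Cre Id2F/F mice, Tcf1KO cells from Ncr1Cre Tcf7F/F mice and DKO cells from Ncr1Cre Id2F/F Tcf7F/F mice. Ncr1Cre recombines floxed alleles in cells that express Ncr1, the gene of the receptor NKp46, so every comparison with Ctrl also compares mice with and without Cre. Each group had 3 libraries, 12 in all, called independent without a statement that each came from its own animal, and the labels used here give no age and do not say which Ctrl library had which genotype. The p-values then measure the spread between these libraries, which may be technical in part.

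A ribosome has a small subunit, which holds the messenger RNA and reads its codons, and a large subunit, which joins amino acids and releases the chain through a tunnel. Most of its proteins are present in a single copy per particle, and their genes are among the most strongly transcribed in any dividing cell. Their messages share a 5′ terminal oligopyrimidine (TOP) tract, a C at the cap followed by a run of C and T bases in the gene, through which LARP1 and the growth kinase mTOR control their translation. The MYC protein raises transcription of many of them. Resting lymphocytes keep few ribosomes and make more when they grow.

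The start of these genes is shown first, because the TOP tract is the element that messages of this kind are known to share. Each line gives 30 bases of the gene's own strand, 5′ to 3′, with 15 before and 15 from the annotated RefSeq start onward (GRCm38.p6). Capitals mark a C within 5 bases of that start and the run of 4 or more pyrimidines after it. The base before that C was not considered, so a run can begin further before the start, as in Rpl35. In Rpl4 a pyrimidine run lies further before the start and is unmarked. The 7 genes with a tract and the 3 without one were chosen after these windows and the values had been seen, to show both kinds.
Rps6: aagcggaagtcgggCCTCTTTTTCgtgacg
Rps18: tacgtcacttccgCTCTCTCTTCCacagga
Rps27: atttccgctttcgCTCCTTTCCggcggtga
Rpl35: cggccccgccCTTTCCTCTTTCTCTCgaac
Rpl35a: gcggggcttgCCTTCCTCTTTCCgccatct
Rpl38: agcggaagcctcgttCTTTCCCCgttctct
Rplp2: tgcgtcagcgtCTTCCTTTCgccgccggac
Rplp0: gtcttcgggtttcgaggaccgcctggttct
Rps3: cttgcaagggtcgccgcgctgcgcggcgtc
Rpl4: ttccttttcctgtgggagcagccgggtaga
The windows lay, in that order, with the strand in brackets, for Rps6 at chr4:86857353-86857382 (minus), Rps18 at chr17:33955651-33955680 (minus), Rps27 at chr3:90213634-90213663 (minus), Rpl35 at chr2:39005117-39005146 (minus), Rpl35a at chr16:33056467-33056496 (plus), Rpl38 at chr11:114668565-114668594 (plus), Rplp2 at chr7:141447636-141447665 (plus), Rplp0 at chr5:115559452-115559481 (plus), Rps3 at chr7:99483695-99483724 (minus) and Rpl4 at chr9:64173372-64173401 (plus).

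Starts of 62 members were in the RefSeq table, as 73 windows, and 32851 windows of all genes served for comparison. A C exactly at the start followed by 4 or more pyrimidines stood in 19.2% of the members' windows and 2.51% of all. A C within 5 bases of the start with 4 or more pyrimidines after it stood in 43.8% of the members' windows and 18.3% of all. With 8 bases or more counted from that C, the shares were 28.8% and 4.37%. In these counts the run itself could begin further before the start. Such a C with 4 or more pyrimidines after it stood in at least 1 window of 30 members. For the other 32 no window had these letters, which says nothing of their transcripts where the annotated start is off by some bases. In the whole 300 bases, searched on both strands, the ETS core CCGGAA stood in 49.3% of the members' windows and 14.9% of all, and the YY1 motif AAGATGG in 16.4% of the members' windows and 6.34% of all. The E-box CACGTG, the letters MYC binds, stood in 10.96% of the members' windows and 7.15% of all. The E protein motif CAGGTG, whose proteins Id2 holds off DNA, stood in 9.59% of the members' windows (7 of 73) and 20.2% of all. The TCF motif CTTTGA stood in 4.11% of the members' windows (3 of 73) and 16.0% of all. These are few windows, and the windows of all genes were not limited to the genes tested. Each motif was counted on its own, wherever it overlapped another, and a match is a run of letters only. Members with a tract had a median log2 difference of 0.49 between Id2KO and Ctrl (30 genes), and those without one 0.55 (32 genes).

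Libraries held 13977524 to 20209587 reads, and the members' reads in a library summed to 327859 to 628515. In every library 78 of the 82 members had 500 reads or more. Id2 stood at 152 ± 24.97 FPKM in Ctrl, 114 ± 11.6 in Tcf1KO, 42.3 ± 6.08 in DKO and 18.03 ± 1.04 in Id2KO (SD, n = 3). Tcf7 stood at 40.9 ± 4.81, 35.0 ± 4.65, 62.4 ± 9.94 and 84.8 ± 6.33 in the same order. A total over the gene includes exons outside a floxed part, so the Tcf7 values check no label, and the targeting of Tcf7 in the Tcf1KO and DKO libraries is known from their labels alone. Id2 was lower in every Id2KO and DKO library than in every Ctrl and Tcf1KO library. All 10 NK cell markers of a list were present, Ncr1, Klrb1c (the gene of NK1.1) and Itga2 (CD49b) among them, with summed FPKM of 1771 to 1899 in Ctrl, 1435 to 1743 in Tcf1KO, 1458 to 2066 in DKO and 976 to 1498 in Id2KO. T cell receptor complex genes, 10 of 10 present, summed to 979 to 1159.8 in Ctrl, 1409.6 to 1891 in Tcf1KO, 1847 to 2262 in DKO and 1299 to 1761 in Id2KO. B cell markers, 9 of 9, summed to 165 to 249 in Ctrl, 153 to 207 in Tcf1KO, 252 to 282 in DKO and 352 to 414 in Id2KO, nearly all of it Ighm, while Cd79a had a mean of 0.944 FPKM in Ctrl and 1.56 in Id2KO. The part of these marker differences in the members' values was not tested.

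Levels differed widely between members. The highest was Rps27 with a mean of 1664 FPKM over the 12 libraries, followed by Rpl32 (1551), Rpl4 (1179), Rplp1 (797), Rpl37a (796) and Rps23 (649.5). The lowest were Rpl7l1 (5.72), Rps27l (8.38), Rps19bp1 (8.99), Rps19 (18.6), Rpl35a (18.9) and Rps28 (33.0). In all, 41 members lay at 100 FPKM or more, 38 between 10 and 100, and 3 under 10, with a median of 101. The first 6 genes made up 35.6% of the members' summed FPKM.

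Part of this order follows the length that FPKM divides by. The gene lengths behind the values, worked out from the step that 1 read adds, ran from 344 bases (Rps27rt) to 11538 (Rps15a), with a median of 2718, against a median of 680.5 for the members' principal transcripts in GENCODE M21. Across members, mean FPKM and this length had a Spearman rho of -0.66, given as a description because FPKM is computed from that length. Divided by the principal transcript instead, the same reads put Rplp2 in place 4, against place 29 by FPKM, and Rpl10 in place 7, against place 42. Rps27 was first by both, and Rps19bp1, Rpl7l1 and Rps27l were the lowest 3 by both. The place of a member among the others is therefore no firm measure, while comparisons of one gene between groups share the same length.

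**Figure D1:**
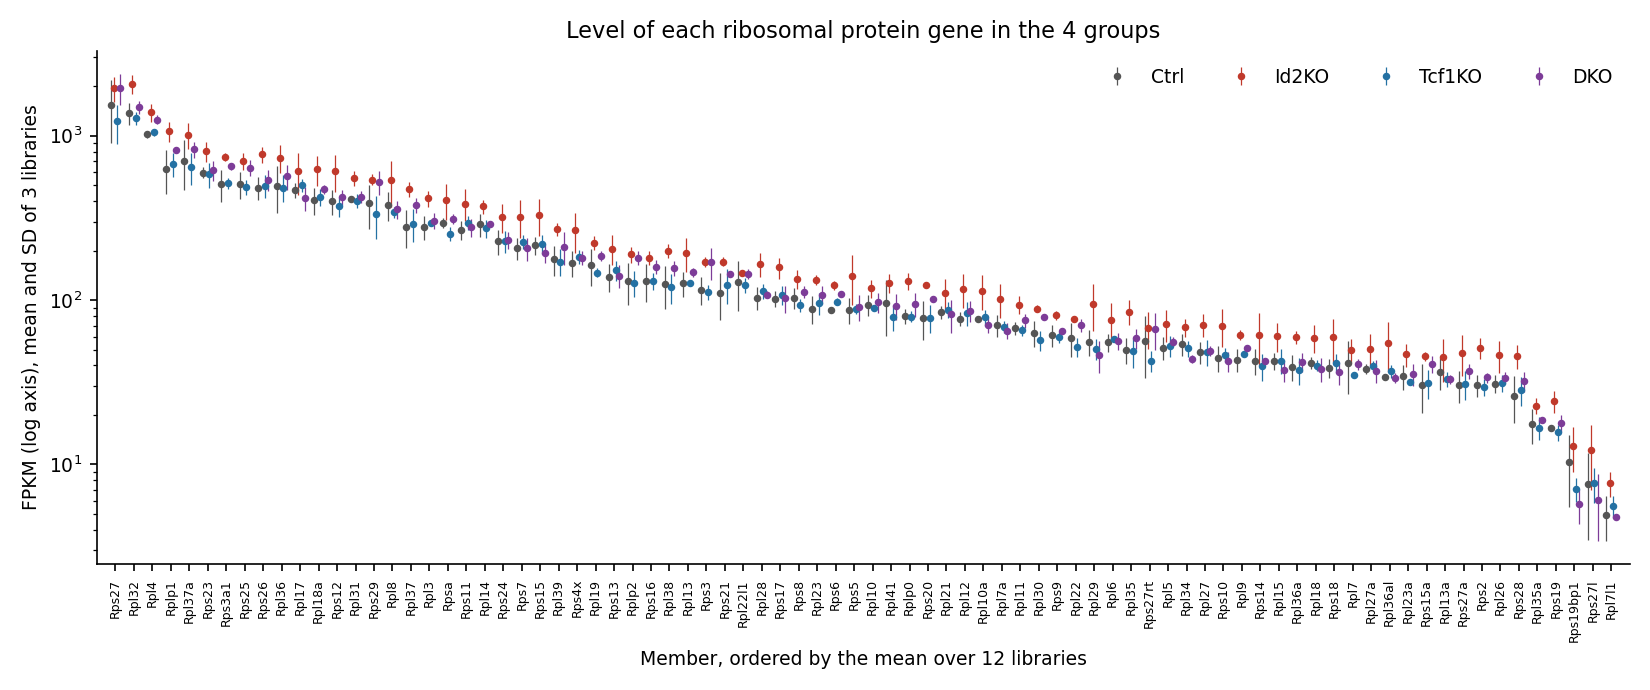
Level of each of the 82 members in FPKM on a log axis, as the mean and SD of 3 libraries in each of the 4 groups, ordered by the mean over 12 libraries. The Id2KO mean (red) is the highest of the 4 group means in 81 of the 82 genes, and the order runs from Rps27 at 1664 FPKM to Rpl7l1 at 5.72.

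As a group, the members took the largest share of the RNA in Id2KO. Their reads made up 2.29, 2.83 and 2.78 in Ctrl, 2.33, 2.70 and 2.76 in Tcf1KO, 2.94, 3.00 and 2.86 in DKO, and 3.45, 4.43 and 3.46 in Id2KO, as percent of the reads of each library. Every Id2KO library lay above all 9 others, and Id2KO replicate 2 stood highest. The DKO libraries lay above every Ctrl and Tcf1KO library by a small margin, and Ctrl and Tcf1KO overlapped. Group means were 2.63% ± 0.299 in Ctrl, 2.598% ± 0.232 in Tcf1KO, 2.93% ± 0.0707 in DKO and 3.78% ± 0.562 in Id2KO (SD, n = 3). No test was made of a sum over chosen genes. In these bulk samples, a different mix of cells and a different amount of RNA per cell cannot be told apart.

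As percent of the FPKM sum of all genes the order was less clean, with 2.599, 3.99 and 3.48 in Ctrl, 2.78, 3.04 and 3.20 in Tcf1KO, 3.61, 4.29 and 4.43 in DKO, and 4.47, 4.78 and 4.27 in Id2KO. Ctrl replicate 1 was the lowest of all, and DKO replicates 2 and 3 reached the range of Id2KO. This sum gives short genes more weight, and Rps27, the shortest highly expressed member, was as high in DKO replicates 2 and 3 as in Id2KO. Mitochondrial ribosomal RNA, which is in the first denominator, took 23.6% to 32.4% of the reads of a library, both of them Id2KO libraries. Of the reads on nuclear protein-coding genes, a denominator added after seeing the data, the members took 3.48, 4.39 and 4.05 in Ctrl, 3.48, 4.10 and 4.44 in Tcf1KO, 4.63, 4.68 and 4.30 in DKO, and 5.11, 6.32 and 5.63 in Id2KO, in percent, and the Id2KO libraries were again the highest 3. Genes of the large subunit had 1.39 to 1.59 times the reads of genes of the small subunit. That ratio was 1.49 ± 0.0954 in Ctrl, 1.48 ± 0.0699 in Tcf1KO, 1.41 ± 0.0263 in DKO and 1.44 ± 0.0120 in Id2KO (SD, n = 3), with groups that overlapped.

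**Figure D2:**
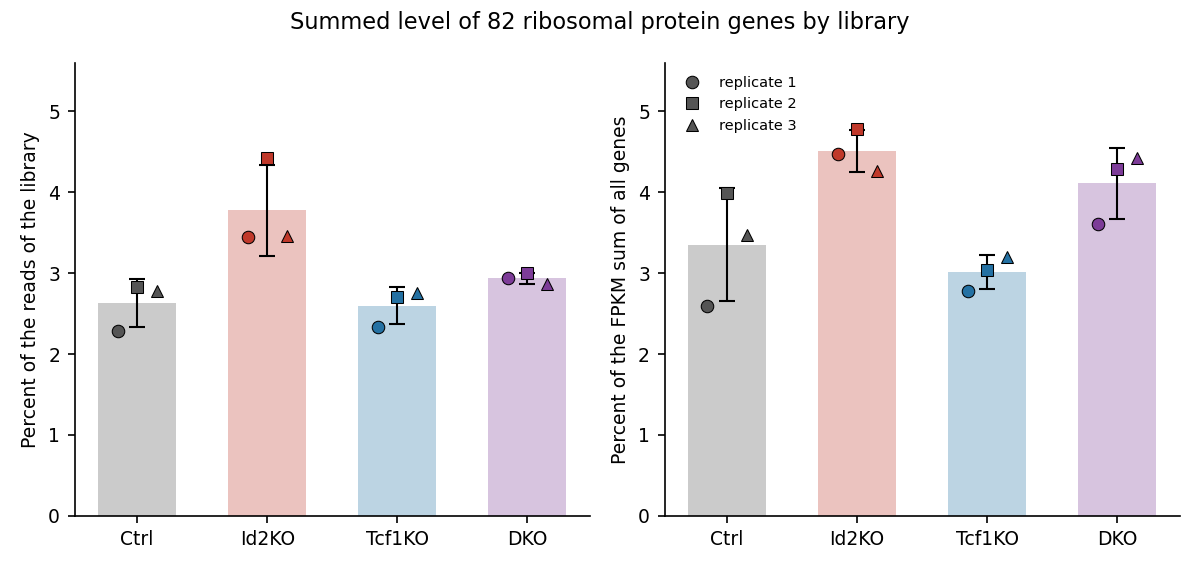
Summed level of the 82 members in each library, as percent of its reads (left) and of its FPKM sum (right). Bars are group means, error bars SD of 3 libraries, and points single libraries; the 3 Id2KO libraries sit between 3.45% and 4.43% of reads, above all others, and overlap with DKO on the right.

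All comparisons with Ctrl share its 3 libraries. Id2KO against Ctrl addressed the targeting of Id2, an inhibitor of E proteins, without that of Tcf7, and also compared mice with and without Cre. All 82 members had a higher mean in Id2KO, by 0.24 (Rpl22l1) to 0.82 (Rps28) on the log2(FPKM + 1) scale, with a median of 0.54, a 1.46-fold difference. Over the 12384 genes tested the median was -0.0079, and 49.0% were positive. None of these differences passed the threshold of an adjusted p of 0.05 in limma's test with Benjamini-Hochberg adjustment over all tested genes: 0 of 82 were called, against 0.178% of all genes, and the smallest adjusted p of a member was 0.140. With voom on recovered reads 0 of 82 were called as well, with a smallest adjusted p of 0.0735. At an unadjusted limma p under 0.05 there were 66 of 82, all higher in Id2KO, against 9.71% of all genes. That count depended on single libraries, terms and scaling. It was 37 without Id2KO replicate 2, 43 without Ctrl replicate 1 and 15 with a score of other cell lineages (described further on) as a term. Under an equal FPKM sum it was 50, with a median of 0.46 beside -0.065 over all genes. Quantile normalization gave 50 and a median of 0.41. A limma fit of only the compared groups gave 51, with a smallest adjusted p of 0.355, while array weights gave 73. In the main test the standard errors of single members ran from 0.11 to 0.41.

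The groups were fully apart in 61 of the 82 members, each with all 3 Id2KO libraries above all 3 Ctrl libraries, as in 7.11% of all tested genes. In 45 members the 3 Id2KO libraries lay above all 9 other libraries, as in 1.98% of all genes. The members vary together between libraries, so these counts are not 82 independent observations. Where the groups overlapped, in 21 members, it was Ctrl replicate 2 alone that reached into the Id2KO range in 14. Large and small subunit genes had medians of 0.51 (48 genes) and 0.57 (33 genes).

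**Figure D3:**
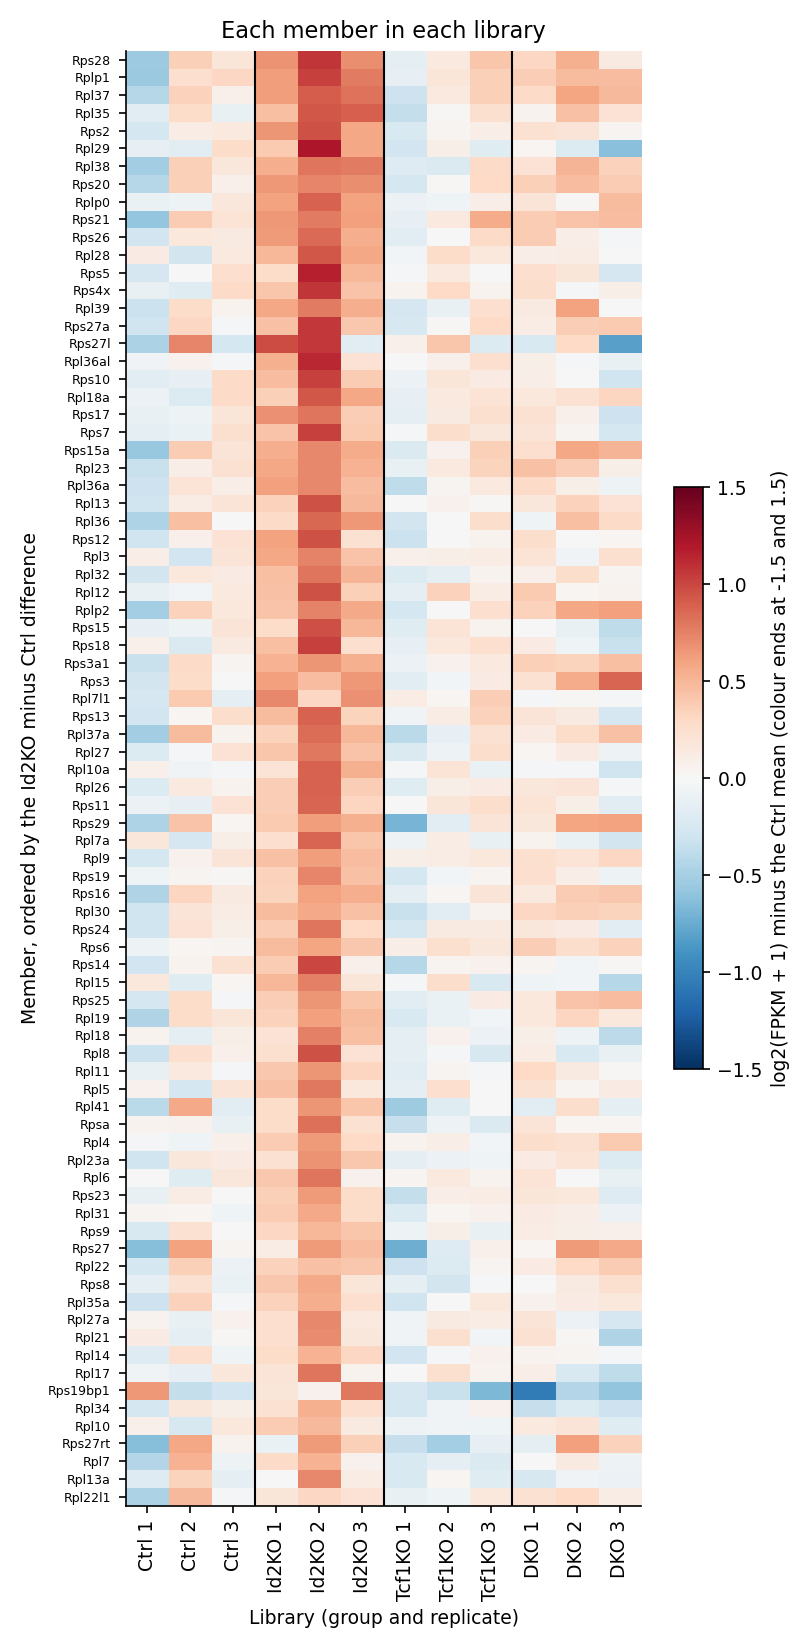
Each of the 82 members (rows) in each of the 12 libraries (columns), as log2(FPKM + 1) minus the mean of the 3 Ctrl libraries; red is higher and blue lower, and rows are ordered by the Id2KO minus Ctrl difference. Id2KO replicate 2 is the highest Id2KO library in 79 of 82 rows, and Ctrl replicate 1 the lowest Ctrl library in 61.

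The stalk of the large subunit, which recruits elongation factors to the ribosome, is built of Rplp0 and pairs of Rplp1 and Rplp2. Rplp0 (ENSMUSG00000067274, chromosome 5, 115559467 to 115563727, plus strand) had FPKM values of 74.9, 76.0 and 90.1 in Ctrl, 75.5, 76.4 and 86.1 in Tcf1KO, 91.4, 80.9 and 111 in DKO, and 122, 148 and 122 in Id2KO. The Id2KO libraries were the highest 3 of the 12, and DKO replicate 3 came next. Its group means were 80.3 ± 8.47 FPKM in Ctrl and 131 ± 15.02 in Id2KO (SD, n = 3), and its difference of 0.70 ± 0.15 (SE) had the smallest adjusted p of any member (limma, adjusted p = 0.140). Rplp1 had FPKM values of 411, 719.9 and 750.2 in Ctrl, 557, 687 and 777 in Tcf1KO, 782, 844 and 836 in DKO, and 935, 1232 and 1037 in Id2KO. It was lowest in Ctrl replicate 1, and each DKO library lay above each library of Ctrl and of Tcf1KO. The difference between Id2KO and Ctrl was 0.81 ± 0.22 (adjusted p = 0.267). Rplp2 had FPKM values of 88.6, 161 and 141 in Ctrl, 105, 126 and 150.1 in Tcf1KO, 160.1, 189 and 194 in DKO, and 170.2, 212 and 188 in Id2KO, with DKO replicates 2 and 3 within the range of Id2KO. It differed by 0.58 ± 0.22 between Id2KO and Ctrl (adjusted p = 0.400) and by 0.51 ± 0.22 between DKO and Ctrl (adjusted p = 0.502).

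Rps6 is the small subunit protein that S6 kinases phosphorylate when mTOR is active. Rps6 (ENSMUSG00000028495, chromosome 4, 86854660 to 86857412, minus strand) had FPKM values of 82.8, 89.1 and 89.2 in Ctrl, 93.0, 103 and 97.9 in Tcf1KO, 113, 105 and 111 in DKO, and 121, 131 and 115 in Id2KO. Its standard error was the smallest of any member, and each library of the 3 Cre groups lay above every Ctrl library. The difference was 0.49 ± 0.11 in Id2KO (adjusted p = 0.143), 0.17 ± 0.11 in Tcf1KO (adjusted p = 0.999) and 0.33 ± 0.11 in DKO (adjusted p = 0.352), all against the same Ctrl libraries. Rps6 was the one member whose Tcf1KO and Ctrl libraries did not overlap, where 4.96% of all genes had Tcf1KO fully above Ctrl and 5.73% the reverse. Its window above begins a tract 1 base before the start, whereas the window of Rplp0 holds none.

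Other small subunit members differed in the same direction. Rps19, the protein most often altered in Diamond-Blackfan anaemia, had FPKM values of 15.9, 17.1 and 16.9 in Ctrl, 13.7, 16.1 and 17.1 in Tcf1KO, 19.9, 17.9 and 15.7 in DKO, and 21.3, 28.2 and 22.9 in Id2KO, with all Id2KO libraries above the other 9 (0.50 ± 0.15, adjusted p = 0.291). Rps3, which lines the entry of the messenger RNA channel, had FPKM values of 93.6, 138 and 114 in Ctrl, 101, 110.3 and 124 in Tcf1KO, 133, 168 and 209 in DKO, and 174, 157 and 179 in Id2KO. Its highest library was DKO replicate 3, so that DKO and Id2KO overlapped; Id2KO differed from Ctrl by 0.57 ± 0.19 and DKO by 0.55 ± 0.19 (adjusted p = 0.315 and 0.370). Rps27a is made as a fusion with ubiquitin and had FPKM values of 24.1, 37.3 and 29.5 in Ctrl, 25.1, 30.1 and 37.0 in Tcf1KO, 32.4, 39.001 and 39.5 in DKO, and 40.7, 63.3 and 39.7 in Id2KO. Here Id2KO replicate 2 was far above its own group. Rpsa, also known as the laminin receptor precursor, had FPKM values of 303, 308 and 270.5 in Ctrl, 229.7, 277 and 252 in Tcf1KO, 336, 298 and 300.4 in DKO, and 355, 521 and 345 in Id2KO, again with replicate 2 highest in Id2KO (0.44 ± 0.16, adjusted p = 0.395). Rps25, which some viral messages need to start translation, had group means of 506 ± 94.6, 485 ± 52.3, 640.4 ± 71.7 and 701 ± 79.9 FPKM in Ctrl, Tcf1KO, DKO and Id2KO (SD, n = 3). Rps28, a small protein at the mRNA exit, had the largest difference, 0.82 ± 0.24 (adjusted p = 0.284), from 26.1 ± 8.15 to 45.5 ± 7.59 FPKM.

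In the large subunit, Rpl5 and Rpl11 carry the 5S ribosomal RNA and bind Mdm2, the ligase of p53, when ribosome assembly fails. Rpl11 had FPKM values of 62.6, 74.6 and 65.9 in Ctrl, 60.5, 69.7 and 66.0 in Tcf1KO, 83.0, 74.4 and 68.5 in DKO, and 89.97, 107 and 84.6 in Id2KO, and all Id2KO libraries lay above the other 9 (0.46 ± 0.14, adjusted p = 0.280). Rpl5 had FPKM values of 53.1, 42.4 and 58.5 in Ctrl, 46.4, 60.9 and 51.0 in Tcf1KO, 59.6, 52.4 and 55.7 in DKO, and 69.3, 88.6 and 57.0 in Id2KO, and Id2KO replicate 3 lay within the range of Ctrl (0.46 ± 0.19, adjusted p = 0.435). Rpl38, known from mice with patterning defects for the translation of Hox messages, had FPKM values of 84.4, 155 and 136 in Ctrl, 106, 104 and 149 in Tcf1KO, 142, 174 and 155 in DKO, and 178, 213 and 208 in Id2KO (0.71 ± 0.22, adjusted p = 0.310), and its Id2KO libraries were the highest 3. Rpl4, whose protein lines the exit tunnel, had group means of 1022 ± 51.8, 1048 ± 50.6, 1255 ± 76.1 and 1391 ± 179 FPKM in the same order (SD, n = 3), with Id2KO and DKO each fully above Ctrl. Rpl10a, a protein of the L1 stalk, differed by 0.54 ± 0.17 between Id2KO and Ctrl, but Id2KO replicate 1, at 88.5 FPKM, did not exceed Tcf1KO replicate 2, at 88.7. Rpl13a, part of a complex that silences inflammatory messages in myeloid cells, had one of the smallest differences, 0.28 ± 0.21 (adjusted p = 0.734), with FPKM values of 31.2, 45.8 and 32.6 in Ctrl, 30.6, 36.7 and 31.7 in Tcf1KO, 30.4, 34.7 and 33.7 in DKO, and 35.9, 59.9 and 38.99 in Id2KO. In Rpl13a Id2KO replicate 2 alone stood above the highest Ctrl library. Rpl35 and Rpl37 were among the largest differences, 0.76 ± 0.20 and 0.78 ± 0.22 (adjusted p = 0.241 and 0.267), and in both the 3 Id2KO libraries were the highest of all.

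Some ribosomal proteins have a paralogue that can take their place. Rpl22, which alpha beta T cells need to develop, had FPKM values of 48.1, 74.1 and 54.1 in Ctrl, 46.3, 50.2 and 59.4 in Tcf1KO, 63.3, 71.4 and 75.4 in DKO, and 73.9, 79.0 and 76.8 in Id2KO. Rpl22l1, its paralogue, had values of 89.2, 175 and 123 in Ctrl, 115, 119 and 139 in Tcf1KO, 146, 153 and 134 in DKO, and 141, 154 and 145 in Id2KO. Both overlapped between Id2KO and Ctrl, where Ctrl replicate 2 reached the Id2KO range in each, with differences of 0.40 ± 0.17 and 0.24 ± 0.20 (adjusted p = 0.468 and 0.774). Rpl22l1 was the smallest difference of any member. Rps27l, a p53 target, was scattered within groups, with FPKM values of 4.77, 12.3 and 5.65 in Ctrl, 7.40, 9.64 and 5.95 in Tcf1KO, 5.81, 8.84 and 3.56 in DKO, and 14.8, 15.6 and 6.17 in Id2KO, and its difference of 0.63 ± 0.41 had the largest error of any member. Rpl7l1, the low paralogue of Rpl7, stood at 4.91 ± 1.49 and 7.67 ± 1.31 FPKM in Ctrl and Id2KO, and Rpl7 at 41.5 ± 14.5 and 49.5 ± 8.03 (SD, n = 3), with overlapping libraries in both. Rpl36a and its copy Rpl36al differed by similar amounts, 0.60 ± 0.19 and 0.62 ± 0.20 (adjusted p = 0.298 and 0.310). Rpl3, Rpl10, Rpl39 and Rps4x, whose partners Rpl3l, Rpl10l, Rpl39l and Rps4l had means of 0.0504, 0, 0.206 and 1.36 FPKM, differed by 0.59, 0.34, 0.63 and 0.64. Of these 4, Rpl10 alone overlapped between Id2KO and Ctrl. Rpl10l was listed at 0 in every library.

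Rps27 and Rps27rt are nearly the same sequence, with gene lengths of 345 and 344 bases, so reads of one could be counted for the other. Rps27 had FPKM values of 927, 2198 and 1494 in Ctrl, 875, 1269 and 1522 in Tcf1KO, 1482, 2248 and 2141 in DKO, and 1570.0, 2254 and 1991 in Id2KO. Rps27rt had values of 34.1, 80.7 and 55.4 in Ctrl, 41.8, 37.2 and 49.0 in Tcf1KO, 48.5, 82.7 and 68.5 in DKO, and 49.9, 84.0 and 68.6 in Id2KO. In both, Ctrl replicate 2 lay within the Id2KO range, and replicate 1 of Ctrl and of Tcf1KO was among the lowest. The differences between Id2KO and Ctrl, 0.40 ± 0.31 and 0.30 ± 0.31, were within the spread (adjusted p = 0.746 and 0.818). Rps29, another short message, had FPKM values of 274, 506 and 385 in Ctrl, 233, 336 and 429 in Tcf1KO, 424, 568 and 573 in DKO, and 496, 579.8 and 547 in Id2KO, and there too DKO replicates 2 and 3 lay within the Id2KO range.

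DKO against Id2KO addressed the targeting of Tcf7 in cells where Id2 is targeted too. The mean of Id2 itself, given above, was higher in DKO than in Id2KO, so these groups differ in Id2 level as well. The part of that in the members' differences was not tested. In this comparison 81 of 82 members had a lower mean in DKO, with a median of -0.40, against -0.0035 over all tested genes. None was called by limma (adjusted p of 0.172 or more; 0.121% of all genes were called), and voom called 0 too. At an unadjusted p under 0.05 there were 42, all lower, against 10.9% of all genes, but 18 without Id2KO replicate 2, 22 without DKO replicate 3 and 25 with the other-lineage score as a term. Under an equal FPKM sum they were 15 and the median -0.21, beside a median of 0.14 over all genes, and under quantile normalization 21 and -0.27. In 57 members every Id2KO library lay above every DKO library, as in 8.32% of all genes. This comparison shares the Id2KO libraries with the one before, so high Id2KO libraries enter both. The members furthest apart were Rps19bp1 (-1.04 ± 0.30), Rpl29 (-0.998 ± 0.24), Rps27l (-0.87 ± 0.41) and Rps15 (-0.74 ± 0.19), with adjusted p = 0.230, 0.172, 0.476 and 0.191. Rpl29, a large subunit protein, had FPKM values of 50.5, 49.2 and 66.9 in Ctrl, 44.8, 58.4 and 48.2 in Tcf1KO, 56.0, 47.7 and 35.3 in DKO, and 72.8, 129 and 82.9 in Id2KO, lowest in DKO replicate 3 and highest in Id2KO replicate 2. Rps15 had FPKM values of 198, 203 and 245 in Ctrl, 188, 247 and 223 in Tcf1KO, 216, 199 and 165 in DKO, and 260.0, 419.9 and 303 in Id2KO, and its DKO libraries overlapped with Ctrl. At the other end Rps27, Rps3, Rps27rt and Rpl22l1 differed by 0.0058, -0.022, -0.021 and -0.026.

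In DKO against Ctrl the members' median was 0.11, with 61 of 82 positive, against -0.0090 and 48.8% over all genes. Without Ctrl replicate 1 the median was 0.0099, with 43 positive, and without DKO replicate 1 it was 0.055, with 55. Under an equal FPKM sum it was 0.22, with 72 positive, beside 0.074 over all genes. The same scaling gave -0.21 in DKO against Id2KO, beside 0.14 over all genes, so the members lay further from all genes there. In DKO against Ctrl limma called 0 members (0.145% of all genes) and voom 0. At an unadjusted limma p under 0.05 there were 6 members, 5 of them higher in DKO, against 9.44% of all genes. That count ran from 1 without DKO replicate 3, 2 without Ctrl replicate 1 and 4 without DKO replicate 1 or 2 to 18 without Ctrl replicate 2. Every DKO library lay above every Ctrl library in 7 members, as in 6.28% of all genes, so this share of members was near the background. The largest positive differences were those of Rps3, Rplp2, Rpl37 and Rps29 (0.55, 0.51, 0.46 and 0.46), and the largest negative ones those of Rps19bp1, Rpl34, Rpl29 and Rps27l (-0.69, -0.29, -0.27 and -0.25). Rps19bp1, no ribosomal protein, had FPKM values of 15.8, 7.33 and 7.75 in Ctrl, 7.97, 7.46 and 5.72 in Tcf1KO, 4.18, 6.87 and 6.08 in DKO, and 11.1, 10.2 and 17.5 in Id2KO, and its DKO libraries lay below all Ctrl libraries. Group means rose from Ctrl to DKO to Id2KO in 59 of the 82 members. This order was counted for the members only, which vary together, and no share over all genes stands beside it.

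In the libraries labelled Tcf1KO against Ctrl the median difference was -0.0042 (all genes -0.0016), with 40 of 82 positive and a range of -0.42 (Rps19bp1) to 0.19 (Rps21). Without Ctrl replicate 1 the median was -0.12 with 21 positive, without Tcf1KO replicate 1 it was 0.082 with 62, and under an equal FPKM sum it was -0.10 with 16, beside -0.073 over all genes. Limma called 0 members and 0% of all genes, voom called 0 members, and 0 members had an unadjusted p under 0.05, against 4.8% of all genes. DKO against Tcf1KO, the targeting of Id2 in cells where Tcf7 is targeted too, had a median of 0.15 with 58 of 82 positive (all genes -0.0065). That median was 0.063 without Tcf1KO replicate 1 and 0.35, with 77 positive, under an equal FPKM sum, which moved the median of all genes to 0.15. There 0 members were called by limma (0.0565% of all genes) and 0 by voom, 7 had an unadjusted p under 0.05, all higher in DKO (6.73%), and 16 had every DKO library above every Tcf1KO library (5.74%). The 7 became 2 without Tcf1KO replicate 1 or without DKO replicate 2 or 3, 3 without Tcf1KO replicate 2, 13 without Ctrl replicate 1 and 30 under an equal FPKM sum. Rps27, Rps29, Rps27rt and Rps3 had the largest differences, with 0.69 ± 0.31, 0.68 ± 0.26, 0.61 ± 0.31 and 0.58 ± 0.19 (adjusted p = 0.741, 0.626, 0.793 and 0.479).

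The interaction asks whether targeting Id2 made the same difference with and without Tcf7 targeted, as DKO minus Tcf1KO set against Id2KO minus Ctrl. The Id2 means given above were further apart between Ctrl and Id2KO than between Tcf1KO and DKO. The reduction of Id2 was thus unequal, and its part in the interaction was not tested. The members' median was -0.40, with 77 of 82 negative, beside 0.0017 over all genes. By limma 0 members were called, with a smallest adjusted p of 0.831 (0% of all genes were called), voom called 0, and 20 had an unadjusted p under 0.05, all negative, against 5.94%. The 20 became 7 without Id2KO replicate 2, 9 without Tcf1KO replicate 2, 10 without Tcf1KO replicate 3, 9 without DKO replicate 3, 11 without Ctrl replicate 1 and 1 under an equal FPKM sum. That scaling moved the median of all genes to 0.22 and that of the members to -0.11, so the members stayed below all genes. No single member was thus shown to differ less between the Id2-targeted group and its control where Tcf7 was targeted. The most negative values were those of Rps27l (-0.97 ± 0.58), Rpl29 (-0.87 ± 0.34), Rps18 (-0.76 ± 0.30) and Rps7 (-0.76 ± 0.28), and the most positive those of Rps27rt (0.31 ± 0.44), Rps27 (0.29 ± 0.45), Rps29 (0.16 ± 0.36) and Rpl22 (0.029 ± 0.24).

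**Figure D4:**
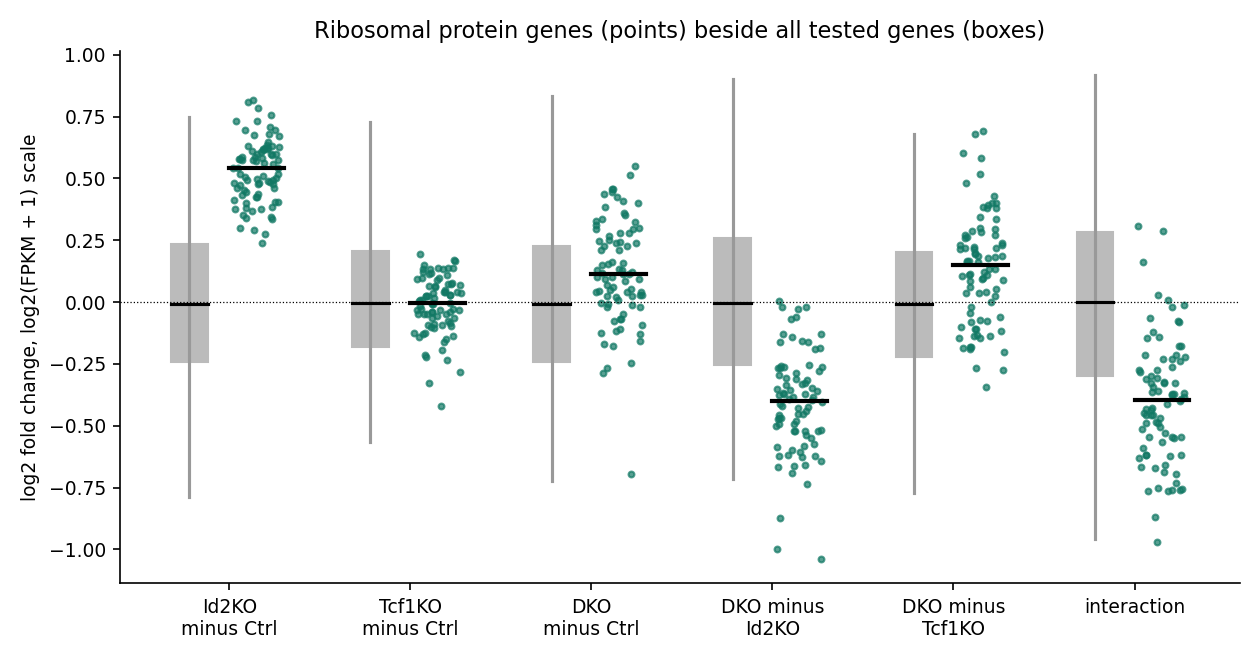
log2 fold change of the 82 members (points, black line at their median) beside all 12384 tested genes (box from the 25th to the 75th percentile, line from the 5th to the 95th) in the 6 comparisons. All 82 points lie above 0 in Id2KO minus Ctrl and all but 1 below 0 in DKO minus Id2KO, which share the Id2KO libraries, and the medians over all genes lie near 0.

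Members moved together between libraries. Over the 12 libraries, the 3321 pairs of members had a median Pearson correlation of 0.74, and after each group's mean was taken out, of 0.53. These values describe libraries that share depth and composition. Within Id2KO, replicate 2 was the highest library in 79 members. In Ctrl, replicate 1 was the lowest in 61 members, and replicates 2 and 3 were the highest in 45 and 31. Without Id2KO replicate 2 the median difference from Ctrl was 0.41 with 82 of 82 positive, and without Ctrl replicate 1 it was 0.44 with 81 of 82. In Ctrl replicate 2 short messages were higher: its deviation from the Ctrl mean had a Spearman rho of -0.39 with the length of the principal transcript, against 0.48 in Ctrl replicate 1. In DKO replicate 2 rho was -0.43, and in Tcf1KO replicates 1 and 3 0.37 and -0.45. In the Id2KO libraries it was 0.15, -0.0092 and -0.13. The part of this length relation in the group differences was not tested.

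Markers of other bone marrow cells also varied between the groups. Summed FPKM of neutrophil and myeloid markers, 12 of 12 present, were 889 to 3581 in Ctrl, 1186 to 4204 in Tcf1KO, 311 to 781 in DKO and 60.3 to 1044 in Id2KO. Erythroid markers, 10 of 11, summed to 772 to 4821 in Ctrl, 1354 to 3557 in Tcf1KO, 452 to 2734 in DKO and 168 to 1929 in Id2KO. Basophil and mast cell markers, 9 of 9, summed to 169 to 634 in Ctrl, 51.6 to 762 in Tcf1KO, 57.9 to 619.9 in DKO and 15.6 to 95.8 in Id2KO. All 3 sums were lowest in Id2KO replicate 1, and Elane, the neutrophil elastase gene, was listed at 0 in the 3 Id2KO libraries. A score of the lists, the mean of the scaled log2 levels of 31 genes, was 0.60, 0.98 and -0.075 in Ctrl, 1.22, 0.77 and -0.18 in Tcf1KO, 0.59, -0.37 and -0.69 in DKO, and -1.62, -1.23 and 0.0007 in Id2KO. With the score as a term in the fit, an alternative added after seeing the data, the members' median in Id2KO against Ctrl was 0.44, with 82 of 82 positive and 15 at an unadjusted p under 0.05. Without the 3 libraries of lowest weight (Ctrl replicate 2, Id2KO replicate 3 and DKO replicate 3), also added afterwards, it was 0.66, with 81 of 82 positive. Neither fit called a member, and beyond these values the part of other cells in the result was not tested.

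Ribosomal protein genes have many processed pseudogenes, intronless copies whose reads can be counted for the gene or the reverse. By blastn, 66 members had at least 1 annotated pseudogene at 90% identity or more over 50% or more of the principal transcript, and 16 had none. Rpl7a had the most, with 81, followed by Rpl21 with 74 and Rpl29 with 57 (Rpl7a and Rpl21 were named after their values were seen). How the authors treated reads that fit several places is not given in the sources used here, so the level of a member with copies is uncertain. The median difference between Id2KO and Ctrl was, without a copy found by this rule, 0.58 (16 members) and, with at least 1, 0.53 (66 members). Rps3, Rplp2 and Rpl37 were among those without a copy under this rule, which can miss copies of members with long principal transcripts. Rpl37 nonetheless has a transcribed processed pseudogene named after it, Rpl37rt (chosen after its values were seen). Rpl37rt had FPKM values of 22.6, 37.6 and 30.1 in Ctrl and 46.9, 52.2 and 45.5 in Id2KO. In Tcf1KO it had 33.3, 27.2 and 41.3, and in DKO 35.8, 44.6 and 38.8. A member counted without a copy can therefore have such a copy, which limits the comparison of the medians. Of 190 pseudogenes named after Rpl and Rps genes, 82 were tested, and 66 of these were higher in Id2KO, with a median of 0.39 and 0 called.

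Other genes of the translation machinery were set beside the members from lists drawn up for this purpose, and in each of them limma called 0 genes in Id2KO against Ctrl and 0 in DKO against Id2KO. Of 3 tested ribosomal proteins under other names, Fau and Rack1 differed by 0.56 and 0.53 in Id2KO against Ctrl, close to the members' median. The lowest of the 3 differed by 0.44. Elongation factors and others whose messages also carry TOP tracts had a median of 0.37 with 15 of 15 positive, and 15 of 15 negative in DKO against Id2KO (median -0.26). Among them were Eef1g (0.59 ± 0.15, adjusted p = 0.223) and Eef1a1 (0.43 ± 0.12, adjusted p = 0.241), of the complex that brings aminoacyl-tRNA to the ribosome, and Eif3e (0.45 ± 0.13, adjusted p = 0.275). Translation initiation factors had a median of 0.20 (18 of 25 positive), with Eif3g (0.63 ± 0.20, adjusted p = 0.306), Eif3i (0.48 ± 0.17, adjusted p = 0.367) and Eif5a (0.36 ± 0.14, adjusted p = 0.410) lowest in p. In DKO against Id2KO Eif3i (-0.60 ± 0.17, adjusted p = 0.224) and Eif3l (-0.78 ± 0.17, adjusted p = 0.145) were lowest in p among them.

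Ribosome biogenesis factors, which make ribosomal RNA and assemble the particle in the nucleolus, had a median of 0.34, with 31 of 38 tested genes positive in Id2KO against Ctrl. Mybbp1a (0.60 ± 0.16, adjusted p = 0.261), Wdr12 (0.85 ± 0.24, adjusted p = 0.267) and Nhp2 (0.87 ± 0.25, adjusted p = 0.271) had the smallest p. In DKO against Tcf1KO most of them were higher in DKO, with 32 of 38 positive and a median of 0.24. Proteins of the mitochondrial ribosome, a separate particle, had a median of 0.22 in Id2KO against Ctrl (59 of 74 positive) and -0.34 in DKO against Id2KO (61 of 74 negative). The 2 tested snoRNA host genes, Snhg12 and Gas5, differed by 0.83 ± 0.29 and 0.35 ± 0.16 between Id2KO and Ctrl (adjusted p = 0.359 and 0.510).

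Genes that control the ribosome's supply had a median near 0 in Id2KO against Ctrl. The list of mTOR, LARP1 and MYC control genes had 9 of 16 tested genes positive and a median of 0.037. Larp1, the protein that binds TOP tracts, had FPKM values of 34.2, 23.2 and 30.8 in Ctrl, 26.6, 34.5 and 31.1 in Tcf1KO, 37.8, 39.8 and 39.8 in DKO, and 53.3, 53.7 and 31.1 in Id2KO (0.60 ± 0.22, adjusted p = 0.382). Mxd4, which competes with MYC for its partner Max, differed by -0.48 ± 0.25 (adjusted p = 0.581), and Rheb, the activator of mTOR, by 0.26 ± 0.19 (adjusted p = 0.730). Of 7 tested genes of p53 and its targets, 5 were positive, with a median of 0.47, and Trp53 (0.47 ± 0.13, adjusted p = 0.261), Ccng1 (0.48 ± 0.17, adjusted p = 0.361) and Cdkn1a (1.04 ± 0.58, adjusted p = 0.619) had the smallest p. None of these passed the threshold.

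**Figure D5:**
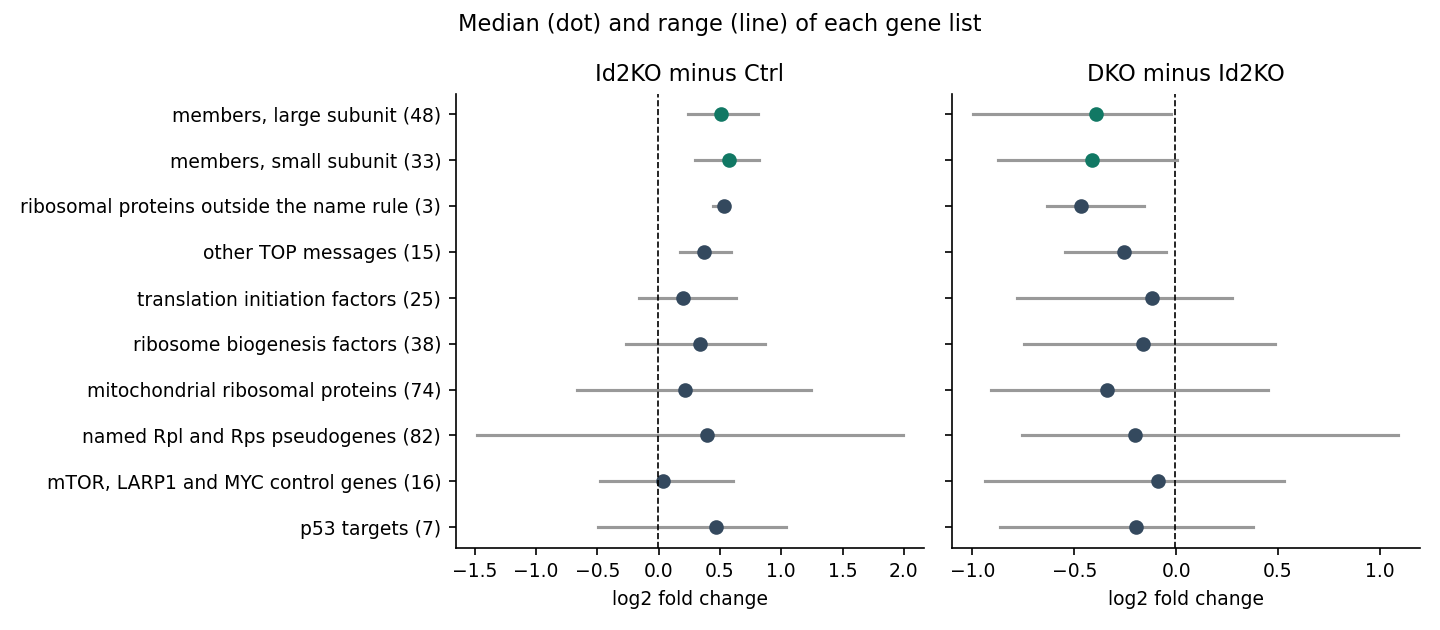
Median (dot) and range from the lowest to the highest gene (line) of the log2 fold change in each list, with the number of tested genes in brackets, in Id2KO minus Ctrl (left) and DKO minus Id2KO (right); the dashed line is the median of all tested genes. The members (green) have medians of 0.51 and 0.57 on the left and -0.39 and -0.41 on the right.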

How the data were processed

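The deposited values are FPKM per gene, made by the authors from 12 libraries; per the submitters' processing notes Trimmomatic 0.33, TopHat2 2.1.0, HTSeq 0.6.1, edgeR and mm10 were used, and the aligner's treatment of reads with several places is not given in the sources used here. Libraries were made with Nugen's Ovation Ultralow system and read for 76 cycles, per the labels' protocols. The labels name the sort CD49b in one field and CD9b in another, and it was read as CD49b. Symbols and positions came from GENCODE M21 (GRCm38) for 32938 of 37991 gene IDs.

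The 12384 genes that reached 1 FPKM in 3 libraries were tested on log2(FPKM + 1) with limma 3.58.1 in R 4.3.3, 4 groups in one model with a variance trend, two-sided, with Benjamini-Hochberg adjustment over all tested genes and a threshold of 0.05. Fold changes are on this scale, which understates low genes. Whole reads were recovered from the FPKM steps for 23706 of 23707 genes above 0 (99.996% within a tolerance of 0.0010 to 0.050 reads) and used for depth, shares and the voom alternative, which called 33 genes in Id2KO against Ctrl, against 22 by the main test. The fit was tested on simulated data. Copies were searched with blastn 2.17.0 among 13525 annotated pseudogenes, and start windows came from RefSeq (GRCm38.p6).

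The members, lists and tests were chosen with earlier results of these data known. Named were the 6 highest and 6 lowest members, the 4 largest differences each way in a comparison, stalk proteins, paralogue pairs and members of known role, and up to 3 genes of each list by p. Alternatives varied the pseudocount, filter, scaling, variance model, weights, block and libraries; a score of other lineages, leaving out 3 libraries and a second denominator were added after seeing the data. Tables and figures used Python 3.11.15, pandas 2.3.3 and matplotlib 3.10.9.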

Additional observations from a re-analysis of the deposited data

How the results depend on the processing

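In each of the 6 comparisons 0 of the 82 members were called under every one of the 28 alternatives that could be fitted, voom and a threshold of 0.01 included (the interaction has no fit of only the groups compared), so the calls do not separate the comparisons. In Id2KO against Ctrl the smallest adjusted p over the alternatives was 0.0735, 81 or 82 members were positive, and the median, 0.54, ran from 0.41 to 0.60 over the fits that leave out 1 library, lowest without Id2KO replicate 2. An equal FPKM sum moved the median of all genes to 0.14 in DKO against Id2KO, 0.15 in DKO against Tcf1KO and 0.22 in the interaction, and gave member medians of -0.21 in the first of these, 0.35 in DKO against Tcf1KO and -0.11 in the interaction. As percent of recovered reads the members made up 2.63% in Ctrl, 2.598% in Tcf1KO, 2.93% in DKO and 3.78% in Id2KO, and as percent of reads on nuclear protein-coding genes 5.69% in Id2KO and 4.01% in Tcf1KO; the denominator differs by construction. The fit with the replicate block gave a median of 0.54 in Id2KO against Ctrl and of -0.40 in DKO against Id2KO and called 0 members, as without it. Libraries of the same number had correlations of -0.14 to 0.27 between their deviations, and libraries of different numbers -0.23 to 0.17. Not every library correlated best with its own number. The highest same-number values were 0.27 (Tcf1KO and DKO replicates 3), 0.24 (Ctrl and Tcf1KO replicates 3) and 0.20 (Tcf1KO and DKO replicates 1, Ctrl and DKO replicates 3). Ctrl and DKO replicates 1 had -0.0046. Same-number pairs with an Id2KO library had -0.14 to 0.031. The main fit treats the libraries as unpaired, and whether a number stands for a shared batch was not tested.

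Of 92 differences of named members in these comparisons, none of them called, those given here changed sign under some settings, among them Rps19bp1 and Rps27rt in Id2KO minus Ctrl (0.35 and 0.30 in the test as reported). The sign turned under leaving out the 3 libraries of lowest weight for Rps19bp1 (-0.058) in Id2KO minus Ctrl; for Rpl22l1 (0.017) and Rps27 (-0.044) in DKO minus Id2KO. The sign turned under quantile normalization for Rps25 (0.071), Rplp2 (0.071), Rps6 (0.023), Rpl22 (0.017), Rps3 (0.13), Rps29 (0.10), Rpl22l1 (0.13) and Rps27rt (0.14) in DKO minus Id2KO. The sign turned under an equal FPKM sum for Rps25 (0.060), Rplp2 (0.12), Rps6 (0.029), Rpl22 (0.057), Rps3 (0.17), Rpl4 (0.047), Rps29 (0.13), Rpl22l1 (0.16) and Rps27rt (0.17) in DKO minus Id2KO, where all genes shift by construction and, of these, Rps3, Rpl22l1 and Rps27rt alone lie above the shifted median of 0.14. The sign turned under the other-lineage score as a term for Rplp2 (0.029), Rps3 (0.068), Rps29 (0.081) and Rps27rt (0.022) in DKO minus Id2KO. The sign turned under array weights for Rpl22l1 (0.0087) and Rps27rt (0.11) in DKO minus Id2KO. The sign turned under median scaling for Rps27 (-0.026) in DKO minus Id2KO. Leaving out 1 library gave ranges of Rps27rt -0.018 to 0.59 (Id2KO minus Ctrl), Rplp2 -0.14 to 0.018 (DKO minus Id2KO), Rps3 -0.18 to 0.14 (DKO minus Id2KO), Rps29 -0.14 to 0.081 (DKO minus Id2KO), Rpl22l1 -0.070 to 0.026 (DKO minus Id2KO), Rps27rt -0.22 to 0.19 (DKO minus Id2KO) and Rps27 -0.14 to 0.19 (DKO minus Id2KO). In every library 78 of 82 members had 500 reads or more, and the part of depth in the spread between the 3 libraries of a group was not tested.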
